A study of Mus musculus with 9 samples.

Results

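Liver takes up long chain fatty acids and other lipids through membrane proteins and carries them in the cytosol on small binding proteins. The genes described here encode 5 proteins of the uptake step (Cd36, Slc27a1, Slc27a2, Slc27a4 and Mfsd2a) and 5 fatty acid binding proteins (Fabp1, Fabp2, Fabp4, Fabp5 and Fabp7). They are 10 of the 18193 genes that could be named and tested, and 18 of the 45101 probe sets on the array carry one of their symbols and no other. The list was chosen on lipid function from the db/db against BKS differences in these same arrays, which were already known, so the values of the 10 genes in that comparison are a description and support nothing by themselves.

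RNA of male mouse liver at 14 weeks of age was hybridised to single-colour Affymetrix arrays, with 1 array per sample. The 4 db/db samples came from BKS.Cg-Leprdb mice, which lack a working leptin receptor and become obese and diabetic with fatty liver. The 5 BKS samples came from C57BL/KSlepr+/+ littermates with the intact receptor gene, and both groups were kept on regular chow. The mutation is present in every tissue, so obesity, high blood glucose and the loss of the receptor cannot be told apart as conditions of the db/db liver. Whether every numbered sample is a separate mouse is not stated in the labels, so standard errors and p-values describe the spread between these samples.

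The signal is the intensity the authors deposited per probe set, on a linear scale and scaled to the same trimmed mean on each array. Median signals of the arrays ran from 67.4 to 110.8 and the file holds no detection calls. Precision is limited by the 9 arrays. Arrays fall into 2 sets by the control signal for 18S ribosomal RNA, which was 1873 to 19771 on db/db 3, db/db 4, BKS 4 and BKS 5 and 22.2 to 43.5 on the other 5 arrays. The control ratio of the 3′ to the 5′ end of beta actin was also higher on the high 18S arrays (3.18 to 5.93) than on most of the low ones (1.62 to 1.80, and 3.32 on BKS 1). Both sets hold both genotypes, so differences are also given within each set. Hepatocyte transcripts were bright in both groups, with Alb, which encodes albumin, at 29869.6 to 67682.5 in db/db liver and 31500.8 to 72422.7 in BKS liver. The 5 hepatocyte markers measured had log2 differences, db/db minus BKS, from -0.38 (Apoa1) to 0.43 (Tat). Of these, 0 had a limma adjusted p under 0.05, while Apoa1 and Tat had unadjusted p of 0.022 and 0.0121.

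As background, CD36 is a scavenger receptor that takes up long chain fatty acids and oxidised lipoproteins, and in mouse liver its gene responds to PPAR gamma, LXR and PXR. The Slc27 proteins, also called fatty acid transport proteins, couple uptake to activation of the fatty acid with coenzyme A. The FABPs are small beta-barrel proteins that hold a fatty acid in an inner cavity, and each is named for the tissue in which it was first found: FABP1 for liver, FABP2 for intestine, FABP4 for adipocytes, FABP5 for epidermis and FABP7 for brain.

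In db/db liver Cd36 and Mfsd2a were 25.8-fold and 24.8-fold higher than in BKS liver, Fabp5 was 16.8-fold lower, Fabp4 and Fabp2 were moderately higher, and the remaining 5 genes were not past the threshold. In the fit over all genes (limma with Benjamini-Hochberg adjustment) 4 members were past the threshold as higher, against a background of 2.89% of all genes, and 1 as lower, against 2.6%. The groups did not overlap for 3 members (Cd36, Mfsd2a and Fabp5), against 9.15% of all genes. The median log2 difference, db/db minus BKS, was 0.37 over the members and -0.00217 over all 18193 genes. When the fit held the 18S split as a block, the same 5 members were past the threshold, 4 higher and 1 lower, against backgrounds of 4.11% and 4.13%. Since the list was drawn up from this contrast, these counts are given without a reading.

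**Figure D1:**
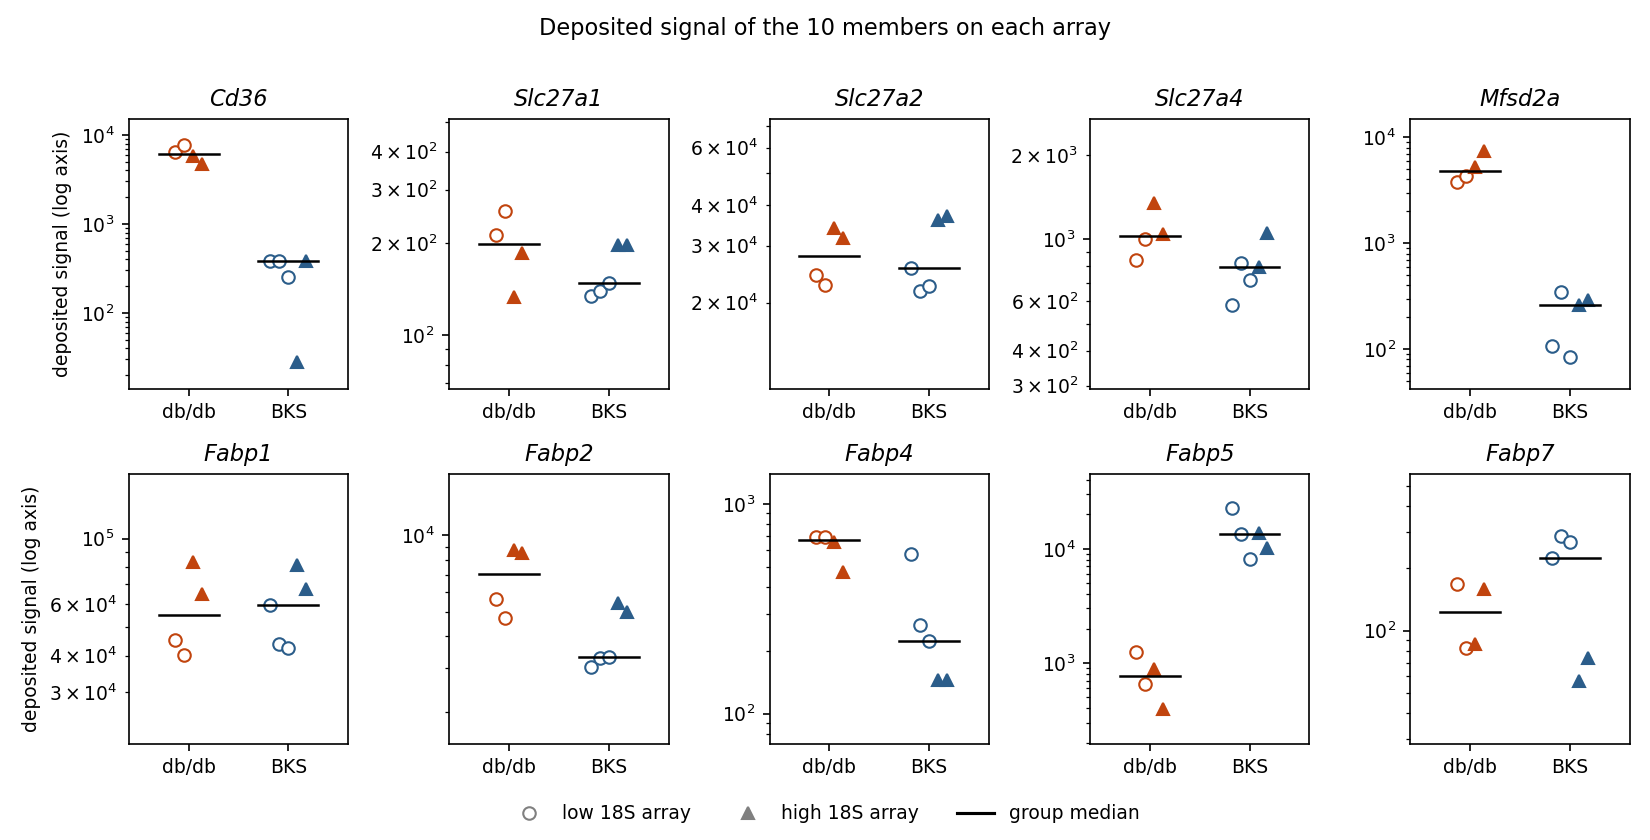
Deposited signal (log axis) of the probe set standing for each of the 10 genes, 1 point per array, with db/db arrays in orange and BKS arrays in blue. Open circles are the 5 low 18S arrays, filled triangles the 4 high 18S arrays and black lines the group medians. Cd36 and Mfsd2a lie higher on all db/db arrays than on any BKS array, and Fabp5 lies lower.

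Among the uptake proteins, Cd36 (chromosome 5, 17781690 to 17888959, GRCm38.p6) had signals of 6351.8, 7597.7, 5769.4 and 4658.9 on db/db arrays 1 to 4. On BKS arrays 1 to 5 it had 387.4, 382.3, 249.9, 28.1 and 384.3. Every db/db array was thus above every BKS array, with BKS 4 far below the other BKS arrays. On the log2(signal + 16) scale after quantile normalization Cd36 averaged 12.55 ± 0.37 in db/db liver and 7.86 ± 1.28 in BKS liver (SD, n = 4 and 5), a difference of 4.69 (SE 0.50) or 25.8-fold. Without BKS 4 the difference was 4.10. Of all arrays BKS 4 had the highest 18S control signal (19771) and the highest 3′ to 5′ ratio of beta actin (5.93).

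The 3 probe sets of Cd36 ran the same way. One of them had 7501.4, 5443.8, 7050.7 and 5776.4 in db/db liver, against 217.7, 286.8, 219.2, 100.6 and 269.9 in BKS liver, a log2 difference of 4.88 (SE 0.22). A dimmer one had 980.3 to 1315.1 in db/db liver and 46.3 to 127.0 in BKS liver, a difference of 3.76 (SE 0.25). On both of these probe sets BKS 4 lay closer to the other BKS arrays than on the first one. Within the low 18S arrays the group means of Cd36 differed by 4.52, and within the high 18S arrays by 5.09.

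Mfsd2a (chromosome 4, 122946850 to 122961194) encodes a sodium-dependent symporter best known for carrying lysophosphatidylcholine with a docosahexaenoic acid chain across the blood-brain barrier, and in liver it is known as a gene induced by fasting. Its single probe set had 3812.3, 4327.7, 5281.7 and 7489.0 in db/db liver, against 108.4, 345.3, 84.7, 263.1 and 289.0 in BKS liver. The lowest db/db array was thus far above the highest BKS array. The log2 means were 12.28 ± 0.38 in db/db liver and 7.65 ± 0.93 in BKS liver (SD, n = 4 and 5), a difference of 4.63 (SE 0.39) or 24.8-fold. Among BKS arrays 1 and 3 were the low ones, and both belong to the low 18S set. The difference was 4.81 within the low and 4.23 within the high 18S arrays.

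RefSeq promoter windows of 300 bases, from 250 before to 50 after a transcript start (GRCm38.p6), were at hand for 8 of the 10 genes. Fabp4 and Fabp5 had none and were not searched. Those of Cd36 and Mfsd2a are printed because both genes were strongly higher, and that of Fabp1 because its gene, a known target of PPAR alpha, was not. The Cd36 window is chr5:17835847-17836146 on the minus strand and lies inside the gene's RefSeq span, so it belongs to one of several starts. The Mfsd2a window is chr4:122961139-122961438 on the minus strand, and the Fabp1 window is chr6:71199629-71199928 on the plus strand. Capitals mark AGGTCA or its complement TGACCT, which is the core that receptors such as PPAR and LXR bind, the direct repeat described after the sequences, and TATAAA.
Cd36: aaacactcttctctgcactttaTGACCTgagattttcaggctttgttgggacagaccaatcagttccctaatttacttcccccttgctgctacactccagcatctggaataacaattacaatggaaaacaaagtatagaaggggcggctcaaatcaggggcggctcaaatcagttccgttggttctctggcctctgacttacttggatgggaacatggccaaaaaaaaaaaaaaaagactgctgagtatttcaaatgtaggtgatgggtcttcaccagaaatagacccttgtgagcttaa
Mfsd2a: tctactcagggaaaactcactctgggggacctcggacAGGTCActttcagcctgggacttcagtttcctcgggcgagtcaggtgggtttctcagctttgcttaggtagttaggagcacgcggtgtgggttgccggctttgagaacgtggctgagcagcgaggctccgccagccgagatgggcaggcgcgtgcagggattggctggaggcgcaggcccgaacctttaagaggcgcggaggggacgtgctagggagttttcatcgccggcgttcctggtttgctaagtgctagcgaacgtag
Fabp1: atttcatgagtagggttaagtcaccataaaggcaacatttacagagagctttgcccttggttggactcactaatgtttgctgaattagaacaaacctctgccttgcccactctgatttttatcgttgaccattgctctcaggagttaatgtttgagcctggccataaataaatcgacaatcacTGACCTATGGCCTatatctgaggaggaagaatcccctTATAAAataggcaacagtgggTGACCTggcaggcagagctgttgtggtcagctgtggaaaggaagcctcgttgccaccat

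All promoters of the RefSeq table were searched on both strands. The core AGGTCA was in 16.3% of them. Of the members' windows those of Cd36, Mfsd2a, Fabp1, Slc27a2 and Fabp7 held it, at 228 bases before the start in Cd36 and 213 in Mfsd2a. The direct repeat with 1 base between its copies, the arrangement that PPAR and its partner RXR bind, was searched as 2 copies of AGGNCA with 1 free base between them, so that any full match overlaps the core search where the N is a T. It was in 0.381% of all promoters and, among the 8 members with a window, in Fabp1 alone, where it begins 67 bases before the start. TATAAA was in 13.6% of all promoters and, among the same 8 members, in Fabp1 alone, 30 bases before the start. These matches describe letters in a window and show no binding.

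The 3 Slc27 genes did not pass the threshold. Slc27a2 (chromosome 2, 126553024 to 126588243), which encodes a liver transporter that also activates very long chain fatty acids, had 24257.3, 22723.0, 34019.1 and 31565.8 in db/db liver, against 25543.3, 21731.8, 22553.7, 35857.1 and 36854.3 in BKS liver. Its deposited signal was higher on the 4 high 18S arrays than on the 5 low ones in both genotypes, and the groups overlapped. The log2 difference between the genotypes was 0.08 (SE 0.10).

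Slc27a4 (chromosome 2, 29802634 to 29817522), the main family member of the intestine, had 841.5, 1006.2, 1349.0 and 1045.3 in db/db liver, against 584.5, 824.7, 713.3, 798.8 and 1050.9 in BKS liver. Most db/db arrays lay above most BKS arrays, with BKS 5 among the db/db values. The log2 difference was 0.43 (SE 0.20), with 0.41 within the low and 0.35 within the high 18S arrays.

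Slc27a1 (chromosome 8, 71568728 to 71587307), known from muscle and fat as an insulin-responsive transporter, had 212.5, 256.2, 133.6 and 185.8 in db/db liver, against 134.4, 139.5, 147.9, 198.2 and 197.3 in BKS liver. The groups overlapped, and the log2 difference was 0.31 (SE 0.30). The sets of arrays disagreed, with a difference of 0.79 within the low and -0.34 within the high 18S arrays. The other probe set of Slc27a1 stood at 0.45 (SE 0.39).

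**Figure D2:**
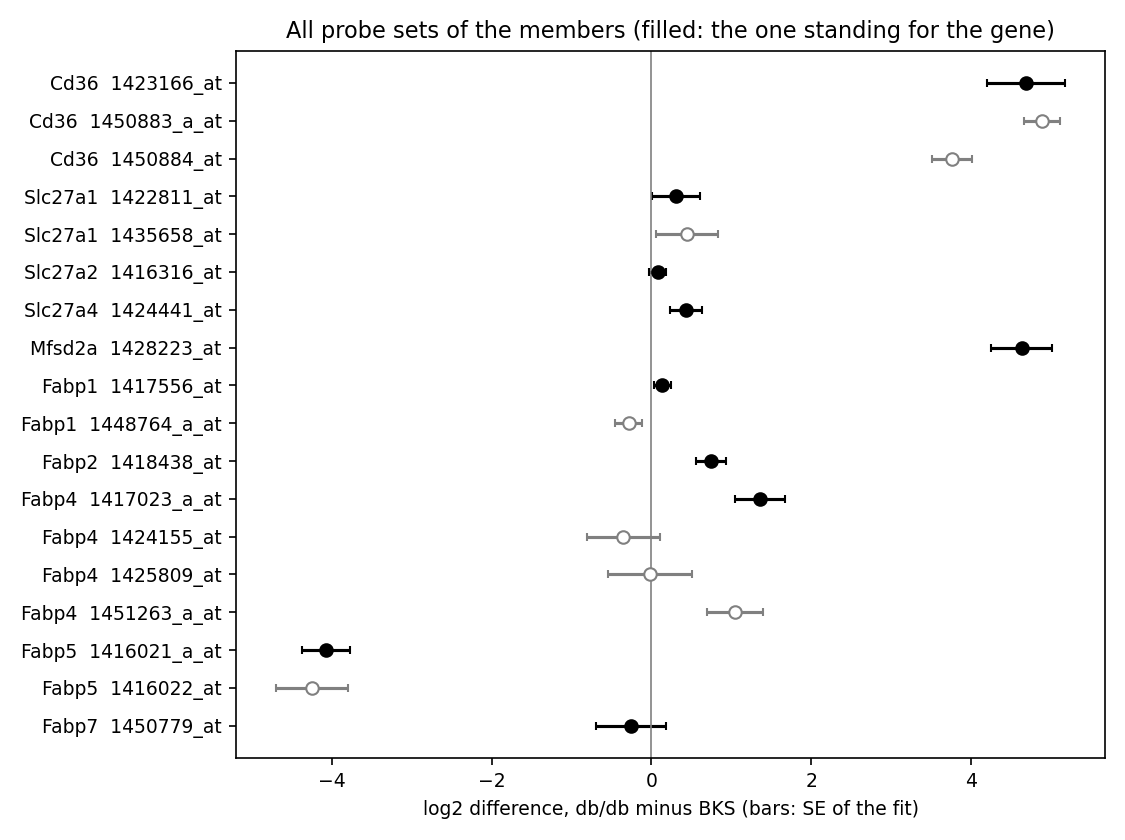
Log2 difference, db/db minus BKS, of each of the 18 probe sets of the members (points) with the SE of the fit over all probe sets (bars). Filled points are the probe sets that stand for the gene. The 3 probe sets of Cd36 lie between 3.76 and 4.88 and both of Fabp5 below -4, while those of Fabp4 and Fabp1 differ among themselves.

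Among the binding proteins, Fabp5 (chromosome 3, 10012585 to 10016610) was the only member past the threshold as lower. Its signals were 1256.7, 656.9, 890.1 and 391.8 in db/db liver, against 22778.6, 13578.9, 8194.4, 13732.1 and 10206.3 in BKS liver. The highest db/db array was below the lowest BKS array. The log2 means were 9.58 ± 0.67 in db/db liver and 13.65 ± 0.55 in BKS liver (SD, n = 4 and 5), a difference of -4.07 (SE 0.31), or 16.8-fold lower in db/db liver. The other probe set of Fabp5 had 217.0, 75.0, 420.4 and 99.4 in db/db liver, against 7850.1, 4395.2, 2293.0, 2707.0 and 2411.3 in BKS liver, a difference of -4.25 (SE 0.45). Both probe sets were highest on BKS 1 among all arrays. The difference on the first probe set was -4.01 within the low and -4.04 within the high 18S arrays. FABP5 is known in macrophages and epidermis, so markers of macrophages and Kupffer cells were set beside it. None of the 8 passed (limma, 0 past the threshold and 4 at an unadjusted p under 0.05, or 2 lower in the fit blocked on 18S), and their summed normalized signal was 3429 to 8242 in db/db liver and 5602 to 15407 in BKS liver. Those 4, named after their values were seen, were all lower in db/db liver: Adgre1 (log2 difference -0.67), Timd4 (-1.21), Cd5l (-1.01) and Clec4f (-0.64). The median difference of the 8 markers was -0.60, and 2 of them had a positive difference. Timd4 was dim, at 7.8 to 95.5 in db/db liver and 36.8 to 164.1 in BKS liver. The part of these cells in the Fabp5 difference was not tested. In bulk liver fewer cells of a type and less RNA per cell cannot be told apart.

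Fabp4 (chromosome 3, 10204342 to 10208616), the binding protein of adipocytes that macrophages and endothelial cells also make, had 692.1, 697.0, 659.4 and 472.8 in db/db liver, against 579.9, 265.4, 222.4, 144.0 and 144.0 in BKS liver. The db/db arrays lay close together, and BKS 1 was higher than db/db 4, so the groups overlapped. The log2 means were 9.34 ± 0.23 in db/db liver and 7.98 ± 0.71 in BKS liver (SD, n = 4 and 5), a difference of 1.36 (SE 0.32) or 2.56-fold, past the threshold. Leaving out each of the 9 arrays in turn ended the call 6 times, with differences between 1.22 and 1.69, and 3 of 13 other settings ended it too. The difference was 1.14 within the low and 1.74 within the high 18S arrays, and within each set the genotypes did not overlap. That was also so for Slc27a1 and Fabp7, whose differences changed sign between the sets. The share of all genes without overlap within a set was not computed.

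The 4 probe sets of Fabp4 did not run alike. One further probe set stood at 1.05 (SE 0.36), with 337.3, 275.4, 273.6 and 312.6 in db/db liver and 326.0, 132.4, 227.3, 59.9 and 93.3 in BKS liver, again with BKS 1 among the db/db values. The other 2 were dim, at 6.5 to 87.9 in db/db liver and 7.4 to 90.1 in BKS liver, and stood at -0.35 (SE 0.46) and -0.02 (SE 0.53). Averaged over all 4 probe sets the difference was 0.51 and was not past the threshold.

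Because FABP4 marks fat cells, adipocyte markers were measured beside it. None of 4 passed (limma, 0 past the threshold, 0 at an unadjusted p under 0.05 and 0 in the fit blocked on 18S), with log2 differences from -0.54 to 0.52 and a summed normalized signal of 383 to 663 in db/db liver and 347 to 533 in BKS liver. Adipoq, which encodes adiponectin, had 2.5 to 47.1 in db/db liver and 4.1 to 55.9 in BKS liver, and Lep, which encodes leptin, 3.5 to 19.4 in db/db liver and 9.9 to 44.3 in BKS liver. Retn, which encodes resistin, had 11.1 to 164.7 in db/db liver and 5.4 to 106.3 in BKS liver (log2 difference 0.52, SE 0.59). Lipe, which encodes hormone-sensitive lipase, had 273.8 to 516.0 in db/db liver and 218.8 to 425.3 in BKS liver (difference 0.21, SE 0.24). The groups overlapped for all 4 markers, and the part of fat cells in the Fabp4 difference was not tested. None of 7 endothelial markers passed (limma, 2 at an unadjusted p under 0.05, and 1 higher in the fit blocked on 18S), and their sum was 1785 to 3911 in db/db liver and 1874 to 3759 in BKS liver. The 2, named after their values were seen, were Pecam1 (log2 difference 1.55, SE 0.52) and Lyve1 (0.79, SE 0.36), both higher in db/db liver. Of the 7 differences 4 were positive. With the block Pecam1 was the 1 past the threshold. The part of endothelial cells in the Fabp4 difference was not tested.

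Fabp2 (chromosome 3, 122895072 to 122899506), the binding protein of enterocytes, had 5630.0, 4737.2, 8756.3 and 8491.1 in db/db liver, against 3012.9, 3293.4, 3316.9, 5390.6 and 4963.8 in BKS liver. Over all arrays the groups overlapped. In deposited signal BKS 4 and BKS 5, of the high 18S set, were above db/db 2, of the low set. After quantile normalization only BKS 4 was above db/db 2, at 12.32 against 12.26 on the log2 scale. Within each set the genotypes stood apart, as they also did for Slc27a1 and Fabp7, which were not past the threshold. How many of all genes stand apart within a set was not computed. The log2 means were 12.67 ± 0.36 in db/db liver and 11.92 ± 0.32 in BKS liver (SD, n = 4 and 5), a difference of 0.75 (SE 0.19) or 1.68-fold, past the threshold. It was 0.68 within the low and 0.70 within the high 18S arrays, and with the split as a block it was 0.69 with an SE of 0.09. Within a genotype the high 18S arrays averaged 0.59 above the low ones. Without the block, leaving out each of the 9 arrays in turn ended the call 6 times. It was also lost in 4 of 13 other settings, namely median centring, no further normalization, averaged probe sets and no variance trend, and its single probe set was not past the threshold in the fit over all probe sets.

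Fabp1 (chromosome 6, 71199879 to 71205034), the abundant binding protein of liver, had 45222.8, 40101.6, 83175.5 and 64642.6 in db/db liver, against 59274.6, 43617.3, 42450.9, 81123.2 and 67328.8 in BKS liver. The groups overlapped over their whole range, and the 2 high 18S arrays were the brightest of each genotype. The log2 difference was 0.14 (SE 0.10) after quantile normalization and -0.028 in the values as the authors scaled them. Quantile normalization holds this probe set at a ceiling, because it was the highest of all probe sets on 4 arrays (db/db 1, db/db 3, db/db 4 and BKS 2) and so received the same value there. The other probe set stood at -0.28 (SE 0.17). A probe set this bright can also be near the top of the scanner's range, which the file does not record.

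Fabp7 (chromosome 10, 57784923 to 57788450), the binding protein of brain, had 168.1, 82.1, 86.5 and 159.7 in db/db liver, against 223.7, 287.3, 267.5, 56.7 and 73.8 in BKS liver. Over all arrays the log2 difference was -0.26 (SE 0.44). The BKS arrays split by 18S set, with the 3 low ones at 223.7 to 287.3 and the 2 high ones at 56.7 and 73.8. The genotype difference was -0.93 within the low and 0.71 within the high 18S arrays, so the direction depended on the set. Fabp7 was dim, at 56.7 to 287.3 where array medians ran from 67.4 to 110.8, and detection was not recorded.

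**Figure D3:**
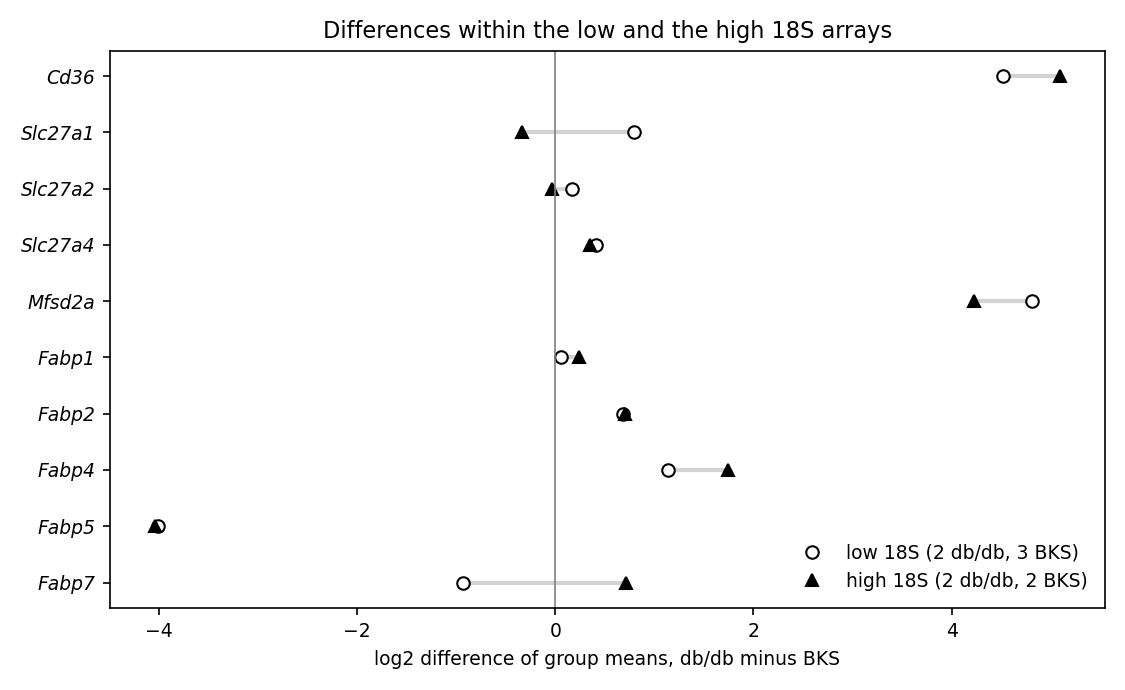
Log2 difference of group means, db/db minus BKS, of each member within the low 18S arrays (open circles, 2 db/db and 3 BKS) and within the high 18S arrays (filled triangles, 2 db/db and 2 BKS). Cd36, Mfsd2a and Fabp5 stay beyond 4 on either side in both sets, Fabp2 and Fabp4 are positive in both, and Slc27a1 and Fabp7 change sign between the sets.

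Fabp4 and Fabp5 lie in one cluster of binding protein genes on mouse chromosome 3, and their differences had opposite signs. The 3 further Fabp genes of the cluster, Pmp2, Fabp9 and Fabp12, stood at -0.07 (SE 0.56), -0.23 (SE 0.47) and -0.02 (SE 0.46), and none passed. Of the 3 measured genes on the far side of Fabp12, which were taken by position after the files were opened, Impa1, which encodes an inositol monophosphatase, fell to 11.20 in db/db liver, against 12.05 in BKS liver, on the log2 scale (difference -0.85, SE 0.16, limma adjusted p = 0.00622). Zfand1 stood at 0.01 (SE 0.23) and Chmp4c at 0.34 (SE 0.46), and neither passed.

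Genes outside the members were tested in the same fit. Their lists were also chosen with earlier results of these data known, so their counts and p-values are a description and support nothing by themselves. Over 10 lists of related genes 61 of 70 were measured, 15 rose (against 2.89% of all genes) and 2 fell (against 2.6%). In the fit blocked on 18S 20 were higher (against 4.11%) and 2 lower (against 4.13%). Most of the rises, 8 of the 15, were in the list of PPAR alpha targets.

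None of the 2 other measured Slc27 genes and none of the 5 other Fabp genes passed (limma, 0 past the threshold in both, 0 at an unadjusted p under 0.05, and 0 in the fit blocked on 18S). Their log2 differences were 0.13 to 0.51 for Slc27 and -0.23 to 0.49 for Fabp genes. None of 4 retinoid binding proteins of the same fold and none of 6 acyl-CoA binding proteins passed (0 at an unadjusted p under 0.05 and 0 with the block in both). Their differences were -0.09 to 0.61 for the retinoid and -0.28 to 0.61 for the acyl-CoA binding proteins. Of 4 long chain acyl-CoA synthetases, which trap a fatty acid in the cell after uptake, Acsl3 rose by 0.76 (SE 0.20, limma adjusted p = 0.0418). Its groups did not overlap, but the call ended without any of 6 of the 9 arrays and in 8 of 13 other settings, and its 3 probe sets ran from 0.40 to 0.76. Its most variable probe set gave a difference of 0.40 (limma adjusted p = 0.823). In the fit blocked on 18S Acsl5, named after its value was seen, was also past the threshold as higher (0.47, limma adjusted p = 0.0426). None of the 3 genes on the list of lysophospholipid transporters passed (limma, 1 at an unadjusted p under 0.05, and 1 with the block).

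Of 9 other genes linked to lipid uptake 2 rose and 2 fell. Vldlr, the receptor of very low density lipoprotein, had 1169.8, 1679.8, 2669.8 and 1527.2 in db/db liver, against 105.8, 96.8, 92.6, 59.4 and 96.3 in BKS liver. The groups stood far apart. The difference was 4.04 (SE 0.25, limma adjusted p = 1.27e-06), and its 6 probe sets ran from 0.97 to 4.04. Got2, whose protein is a mitochondrial aminotransferase also described as a fatty acid binding protein of the plasma membrane, rose by 0.42 (SE 0.10, adjusted p = 0.0231, ended without BKS 3, BKS 4, db/db 2 or db/db 3), but its 4 probe sets ran from -0.40 to 0.71. The Got2 call was lost in 7 of 13 other settings, among them median centring (limma adjusted p = 0.532), no further normalization (adjusted p = 0.355) and the probe set of largest variance (difference 0.039, adjusted p = 0.984). Cav1, the coat protein of caveolae, had 266.2, 117.8, 164.6 and 111.0 in db/db liver, against 564.0, 514.0, 603.3, 621.7 and 504.8 in BKS liver. With no overlap between the groups, its log2 difference was -1.68 (SE 0.25, limma adjusted p = 0.00114). The Cav1 call ended in 1 of 13 other settings, low 18S arrays alone. Lpl, lipoprotein lipase, fell by 1.15 (SE 0.26, adjusted p = 0.0209, ended without db/db 3 or db/db 4 and in 3 of 13 other settings).

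Of 11 measured receptors and regulators known to act on Cd36 or Fabp genes 2 rose. Pparg, the receptor PPAR gamma, had 1012.1, 529.6, 928.7 and 748.5 in db/db liver, against 231.2, 449.8, 239.7, 290.8 and 250.6 in BKS liver. All db/db arrays were above BKS 2, the highest BKS array. The difference was 1.46 (SE 0.26, limma adjusted p = 0.00439), and the call ended in 1 of 13 other settings, low 18S arrays alone. Nr1i2, the receptor PXR, rose by 0.70 (SE 0.16, adjusted p = 0.0234, ended without db/db 2, db/db 3 or db/db 4 and in 5 of 13 other settings). The other 9 had differences between -0.98 and 0.71. In the fit blocked on 18S 4 regulators were higher, the further ones being Ppara, the receptor PPAR alpha (0.59, limma adjusted p = 0.0265), and Ppargc1a, a coactivator of PPARs (0.74, adjusted p = 0.0377), both named after their values were seen.

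Of 11 measured PPAR alpha targets 8 rose and all 11 had a positive difference. Cyp4a14, a fatty acid hydroxylase, had 18635.2, 18433.0, 32836.3 and 28479.6 in db/db liver, against 399.4, 3685.7, 727.6, 61.3 and 101.0 in BKS liver (difference 5.89, SE 0.82, limma adjusted p = 0.000797). BKS liver varied widely, but no BKS array reached the db/db values. Acot1, a cytosolic acyl-CoA thioesterase, rose by 2.20 (SE 0.29, adjusted p = 0.000604), and Vnn1, a pantetheinase, by 2.08 (SE 0.28, adjusted p = 0.000604). Of 6 lipid storage genes known as PPAR gamma targets, Mogat1, a monoacylglycerol acyltransferase, rose by 1.95 (SE 0.34, adjusted p = 0.00373). The Mogat1 call ended in 1 of 13 other settings, high 18S arrays alone. Plin4, a lipid droplet coat protein, rose by 1.59 (SE 0.38, adjusted p = 0.0266, ended without BKS 1, db/db 1, db/db 2 or db/db 3 and in 4 of 13 other settings). In the fit blocked on 18S 3 of these 6 were higher.

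**Figure D4:**
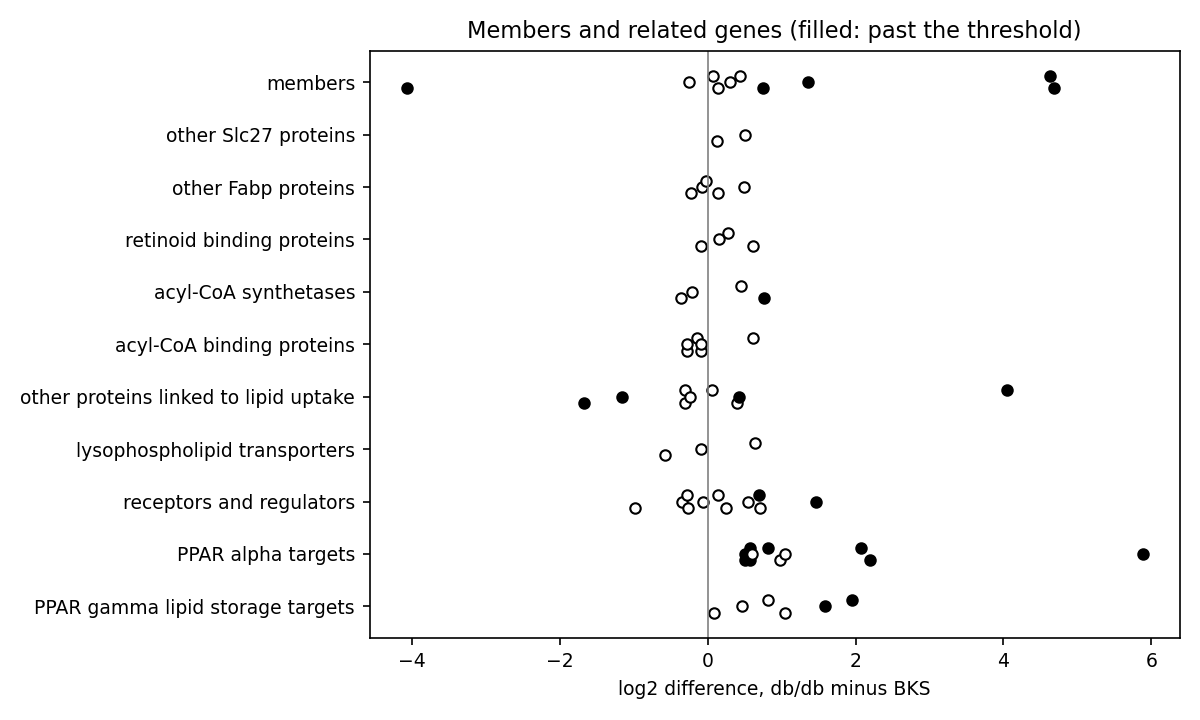
Log2 difference, db/db minus BKS, of the 10 members and of 61 related genes, 1 point per gene, by list (small vertical shifts only separate points). Filled points are past the threshold of the fit over all genes. The other Slc27 and Fabp genes lie near 0, Vldlr lies at 4.04, and all 11 PPAR alpha targets lie above 0.

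Over the 9 arrays the log2 values most like those of Cd36 were those of Got1, an aminotransferase (Pearson r = 0.985), Cyp17a1, a steroid hydroxylase (r = 0.971), and Spata2l (r = 0.962). Those most like Mfsd2a were Serpinb1a (r = 0.989), Slc16a7 (r = 0.988) and Nat1 (r = 0.984). Those most like Fabp5 were Dtymk (r = 0.985), Neat1 (r = 0.985) and Serpina4-ps1 (r = 0.982). These likenesses are a description over 9 arrays of both genotypes, and likeness within a genotype was not tested.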

How the data were processed

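Liver RNA, 8 µg per sample, was labelled with biotin, per the labels' protocols. The authors deposited 1 linear intensity per probe set and array. Their software and background correction: not given in the sources used here. Trimmed by 2% at both ends, each array's deposited intensities averaged 500.0035 to 500.0049.

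Values were transformed as log2(intensity + 16) and, since array medians spanned 0.604, brought to common quantiles (limma 3.58.1, R 4.3.3). The amount added compresses folds of dim genes. Of 45101 probe sets 34945 had 1 gene symbol in the platform annotation, 932 several, 9160 were unlisted and 64 were controls. Each gene was represented by its probe set with the highest mean, kept the same in alternatives other than those on the probe set. This gave 18193 genes with no filter. All were tested with lmFit and eBayes with a trend (two-sided, adjusted p under 0.05 over all genes), and probe sets likewise. The steps were tested on simulated data. Alternatives changed the normalization, the amount added, a filter on dim genes, the probe set rule, the variance model, the blocks and the arrays used.

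Members and lists were chosen with earlier results of these data known. From each list up to 3 genes a direction with the smallest adjusted p were named. The 18S split was made at the largest gap in that signal. Deviations from group means of equally numbered db/db and BKS samples correlated at -0.07 to 0.17, so numbers were not taken as pairs. No arrays held identical values. Promoters came from RefSeq (GRCm38.p6).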

Additional observations from a re-analysis of the deposited data

Results flagged for a closer look

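In 4 cases 1 array lay far from the others of its group on the log2 scale by Dixon's criterion, of 20 groups looked at, where chance gives about 1 in 20. Cd36 on BKS 4 was at 5.65, with the next BKS array at 7.90. Fabp4 on db/db 4 was at 8.99, with the next db/db array at 9.43, and Fabp4 on BKS 1 was at 9.20, with the next BKS array at 7.96. Fabp1 on db/db 2 was at 15.73, while the other 3 db/db arrays held one identical value, 15.89, the ceiling that quantile normalization gives to the highest probe set.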

How the results depend on the processing

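The 3 members with large differences, Cd36, Mfsd2a and Fabp5, kept their direction and their side of the threshold in all 13 alternatives and all 9 fits that left out 1 array, with log2 differences of 4.10 to 5.28, 4.30 to 4.83 and -4.34 to -3.79. The count of higher members was 2 with averaged probe sets and without a variance trend. It was 3 with median centring, with no further normalization and in low 18S arrays alone. With 1 array left out it was 2 to 3 (2 without BKS 3, db/db 1 or db/db 3). Over all genes 526 rose and 473 fell. These counts were 323 and 212 with median centring, 254 and 212 without a trend, 216 and 220 in low 18S arrays alone, 241 and 224 in high 18S arrays alone, and 309 to 519 and 283 to 434 with 1 array left out (lowest without db/db 3). Falls numbered 260 with the probe set of largest variance, 273 with averaged probe sets and 751 with the 18S block. Related genes that rose numbered 9 with median centring, 7 without a trend, 5 in low and 7 in high 18S arrays alone and 10 to 15 with 1 array left out. Those that fell numbered 1, 0, 1 and 1 to 2 without a trend, in both sets alone and with 1 array left out. Signs turned for Slc27a1 (-0.34), Slc27a2 (-0.041) and Fabp7 (0.69) in high 18S arrays alone, for Slc27a2 (-0.0022) and Fabp1 (-0.028) with no further normalization, and for Fabp1 with the probe set of largest variance (-0.28) and averaged probe sets (-0.073). The set-alone fits hold fewer arrays. For Fabp1 the probe set of largest variance is its other probe set, which also enters the average. The cause of the other turned signs was not tested. With the replicate block 596 genes rose and 550 fell, and member calls stayed at 4 and 1. Among the named members and list genes past the threshold in the main fit, it ended the calls of Acsl3 and Nr1i2 only. Impa1 is not covered here.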
